A study of Homo sapiens with 131 samples.

Results

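The genes described here encode the factors that mark and license replication origins: the 6 subunits of the origin recognition complex (ORC1 to ORC6), the loading factors CDC6 and CDT1, and GMNN, which encodes geminin. They were taken by gene name, and all 9 matched 1 row each among 60708 genes. Of these, 8 also had unspliced RNA and a replication state, while ORC1 had neither because chromosome 1 was left out of those tables. The values come from HAP1, a near-haploid human cell line derived from a chronic myeloid leukaemia, in which a locus has 1 copy before its replication and 2 copies after it. Mid-S cells were sorted singly by DNA content, and with scRR-seq the DNA and the RNA of each cell were made into separate libraries. The labels list 63 mid-S cells with both libraries and 5 G1 DNA libraries, none with any treatment or genetic change named, and 56 of those cells are in the tables. The other 7 and the G1 libraries were not used here. There was 1 biological experiment, so every p-value covers only the spread between its cells.

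ORC binds origins and, with CDC6 and CDT1, loads the ring-shaped MCM2-7 helicase onto DNA in G1, which is called licensing. Once S-phase begins, further loading is blocked: CDT1 is destroyed and is also bound by geminin, its inhibitor, and in human cells ORC1 is degraded after ubiquitylation. Much of this control acts on the proteins, which were not measured here. The mRNAs of several of these factors are targets of the E2F transcription factors, which act at the passage from G1 into S-phase.

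The percentage replication score, the share of called 40-kb bins in the 2-copy state, ran from 39.7% to 67.2% with a median of 54.1%. Between 12045 and 15028 genes per cell reached 1 TPM (a share of all transcripts in the cell, corrected for transcript length). The S-phase markers PCNA, MCM2, MCM5, RRM2 and TYMS were above 0 in 56 of 56 cells, while among 5 blood-cell markers HBB and SPI1 were listed at 0 in all 56 cells, PTPRC was above 0 in 1 cell (58.7 TPM), CD33 in 7 cells (up to 2.04 TPM) and CD34 in 27 cells (up to 1.49 TPM). The libraries formed 2 sets by cell number, a split first seen in the values and not given by the labels. The second set (27 cells numbered above 65) had 2.57% to 5.55% of TPM in mitochondrial genes and a median score of 56.6%, against 4.98% to 18.3% and 50.5% in the first set (29 cells). Values are therefore also given within each set for the results on which the sets bear.

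Promoter sequences are shown first for ORC1, CDC6 and CDT1, because these 3 hold the same E2F-like string close to the start of the gene. All 9 genes matched the RefSeq promoter table of GRCh38.p14, and the 250 bases before the start were searched on both strands for TTGGCGNGA, a string close to known E2F sites that was chosen with these promoters in view. It occurred in ORC1, CDC6 and CDT1 and in 0.561% of all 35116 promoter windows of that length. The classical E2F form TTTCCCGC occurred in CDT1 and ORC3 and in 1.39% of windows, and the form TTTGGCGC in none of the 9 windows and 0.55% of all. The matches are marked in capitals, each sequence runs 5′ to 3′ in the direction of transcription and ends at the base before the start.
ORC1 (chr1:52404424-52404673, minus strand): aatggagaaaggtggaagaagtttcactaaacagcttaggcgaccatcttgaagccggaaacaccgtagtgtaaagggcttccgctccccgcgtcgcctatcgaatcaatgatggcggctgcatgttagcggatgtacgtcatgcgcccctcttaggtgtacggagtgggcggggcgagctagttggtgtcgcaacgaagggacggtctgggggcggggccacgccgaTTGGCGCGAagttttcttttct
CDC6 (chr17:40287629-40287878, plus strand): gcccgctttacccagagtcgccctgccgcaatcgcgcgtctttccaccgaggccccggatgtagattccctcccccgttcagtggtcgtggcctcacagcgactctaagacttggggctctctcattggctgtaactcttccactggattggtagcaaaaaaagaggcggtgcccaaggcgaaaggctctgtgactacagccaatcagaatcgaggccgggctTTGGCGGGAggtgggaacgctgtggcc
CDT1 (chr16:88803539-88803788, plus strand): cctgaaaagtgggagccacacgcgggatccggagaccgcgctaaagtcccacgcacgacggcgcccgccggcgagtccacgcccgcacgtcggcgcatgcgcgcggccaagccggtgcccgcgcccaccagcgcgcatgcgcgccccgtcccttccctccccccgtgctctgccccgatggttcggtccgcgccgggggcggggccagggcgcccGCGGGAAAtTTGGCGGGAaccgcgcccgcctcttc

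The string begins at position -22 in ORC1, -27 in CDC6 and -26 in CDT1, counted back from the start, and CDT1 holds TTTCCCGC on the other strand just before it, beginning at -35. A CCAAT box, the usual NF-Y motif, was found in ORC1, ORC2, ORC3, ORC6 and CDC6, where it overlaps the E2F-like string in ORC1, and in 32% of all windows. ORC4, ORC5 and GMNN held none of the 4 strings, which says only that these letters are not in those windows.

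The RNA of all 9 factors was detected in nearly every mid-S cell. The levels that follow are spliced RNA in TPM. GMNN, whose product geminin inhibits CDT1, had the highest median with 126 TPM (lowest 0, highest 338). ORC6, the smallest ORC subunit, had 118 TPM (37.1 to 276) and was never near 0. These 2 genes stood above the others: ORC6 was 2.09-fold higher in median than ORC3, the next gene, was higher than it in 52 of 56 cells, and their interquartile ranges did not overlap. GMNN and ORC6 themselves overlapped, with GMNN higher in 34 of 56 cells.

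The remaining 7 genes formed a continuous order in which every neighbour overlapped the next. ORC3, a subunit of the ORC core, had a median of 56.5 TPM (0 to 129), CDT1 had 55.8 TPM (1.45 to 152) and CDC6, an AAA+ ATPase related to ORC1, had 53.9 TPM (0 to 247). The median of ORC3 exceeded that of CDT1 by only 1.01-fold, and CDT1 was above CDC6 in 28 of 56 cells. ORC5 had 44.4 TPM (0 to 150), ORC4 had 37.5 TPM (8.71 to 154), and ORC1, the subunit that varies most through the cell cycle as a protein, had 34.2 TPM (0.36 to 129). ORC2 was lowest with 26.2 TPM (0.15 to 141). Between neighbours from CDC6 down to ORC2 the first was higher in 29 to 31 of 56 cells, so their order is not resolved. The medians of all 9 lay between the 67.3th and the 93.8th percentile of the 17132 genes that reached 1 TPM in at least 20% of cells. ORC4 overlaps ACVR2A and MBD5, which lie on the other strand with medians of 19.5 and 14 TPM. No source used here says if reads were counted by strand, so reads of these genes may not be fully separated.

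**Figure D1:**
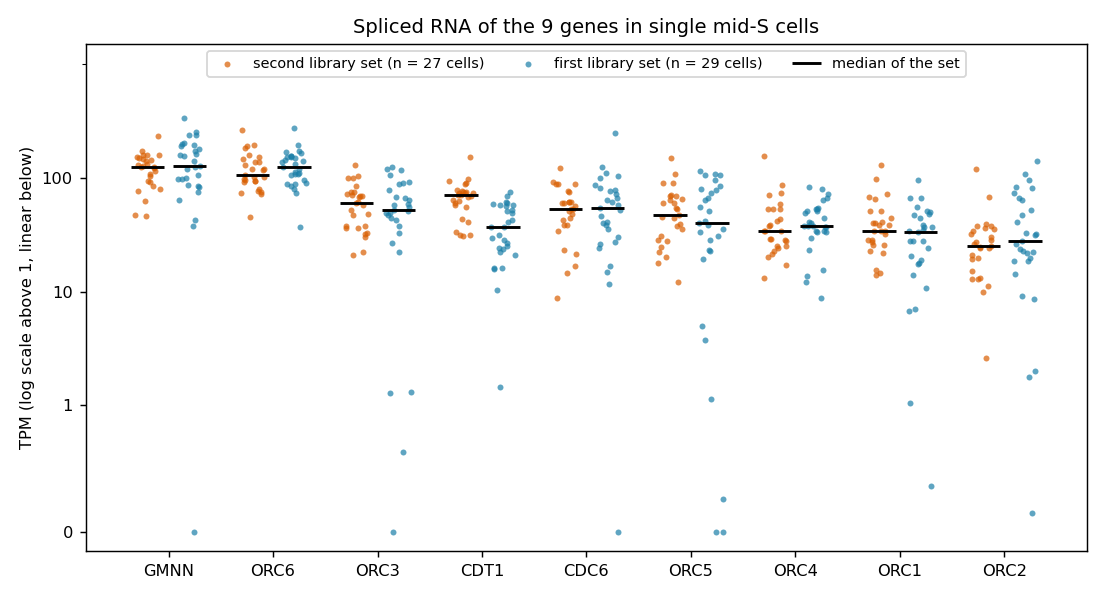
Spliced RNA (TPM, log scale above 1) of each gene in each cell, ordered by the median over all cells, with the second library set left of the first and a black line at the median of each set. GMNN and ORC6 lie highest, the CDT1 medians of the sets are 70.7 and 37.2 TPM, and all 9 values under 1 TPM are in the first set.

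The cells did not lack whole groups of these mRNAs. Of 504 values, 9 were below 1 TPM, in 7 cells, and all 9 lay in the first library set. No cell had more than 1 member listed at 0, and 51 of 56 cells had none. The genes at 0 were ORC5 in 2 cells and ORC3, CDC6 and GMNN in 1 cell each. In the 4541 genes whose medians lie in the same range, 1.30% of values in the second set and 4.64% in the first set were below 1 TPM, beside 0% and 3.45% for the 9 genes. The file gives no read counts per gene, so the depth behind a value of 0 is unknown.

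The spread between cells differed among the genes. The coefficient of variation was lowest for ORC6 (37.2%) and GMNN (46.5%), the most abundant, and highest for ORC2 (84.4%), the least abundant. CDT1 (51.5%), ORC3 (53.6%), ORC4 (56.6%), ORC1 (64.1%), ORC5 (66.5%) and CDC6 (66.5%) lay between. Genes with medians from that of ORC2 up to that of GMNN had a median coefficient of 60.4%. Of them, 10% lay below 44.7% and 10% above 81%, with ORC6 under the first limit and ORC2 over the second. In that range of medians ORC2 is at the low end and ORC6 near the high end, so neither was compared with genes of its own level alone. Summed over the 6 ORC genes the level had a median of 337 TPM (190 to 527).

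The balance of inhibitor and target can be read within a cell. GMNN exceeded CDT1 in 50 of 56 cells. In the 55 cells with both above 0 the ratio of GMNN to CDT1 had a median of 2.11 (interquartile range 1.63 to 4.61). By set, the median ratio was 1.75 in the second set and 3.54 in the first. Within ORC, ORC6 exceeded ORC1 in 55 of 56 cells with a median ratio of 3.88. These are ratios of mRNA levels per length and say nothing of the proteins.

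Whether the mRNAs move as S-phase proceeds was tested with a smooth curve of log10(TPM + 1) over the score fitted by mgcv. The study used this kind of model on other cell lines with another quantification. It also sought markers by the same approach in HAP1 cells over the whole of S-phase. Those HAP1 markers were not compared here. In the present fit the model ran on mid-S HAP1 cells alone, after low genes had been removed. None of the 9 genes passed: the adjusted p ran from 0.599 for CDT1 to 0.988 for ORC6. Across all 17132 genes tested 7 were called, or 0.0409%, and 1779 had an unadjusted p under 0.05, so few genes of any kind passed in these cells. None of the 9 had an unadjusted p under 0.05.

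The medians in 3 groups of cells ordered by score describe the levels without a test. In the 19 lowest-scored, 18 middle and 19 highest-scored cells, GMNN had medians of 127, 131 and 119 TPM. ORC6 had 132.7, 106.8 and 120 TPM. CDC6 had 58.0, 50.6 and 56.7 TPM. None of these runs in 1 direction across the 3 groups, and neither do ORC1 (34.5, 31 and 34.4 TPM), ORC2 (32.2, 23.1 and 28.6 TPM), ORC3 (55.4, 59.9 and 52.7 TPM), ORC4 (36.9, 39.0 and 38.3 TPM), ORC5 (44, 37.4 and 54.1 TPM) or CDT1 (51.8, 56.6 and 55.5 TPM). As a description, Spearman's rho with the score over the 56 cells, which come from 2 library sets, ran from -0.23 for GMNN to 0.07 for CDT1, with a median of 0.01, beside a median of 0.00 over all genes tested. GMNN lay below the level of -0.20 that the lowest 10% of genes reached, and the other 8 did not. Within the second set rho was -0.62 for CDT1, -0.30 for GMNN, -0.29 for ORC1, -0.25 for CDC6, -0.19 for ORC3 and -0.13 for ORC6. It was -0.004 for ORC2 and for ORC4, and 0.12 for ORC5. Within the first set it ran from -0.19 for GMNN to 0.14 for CDT1.

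**Figure D2:**
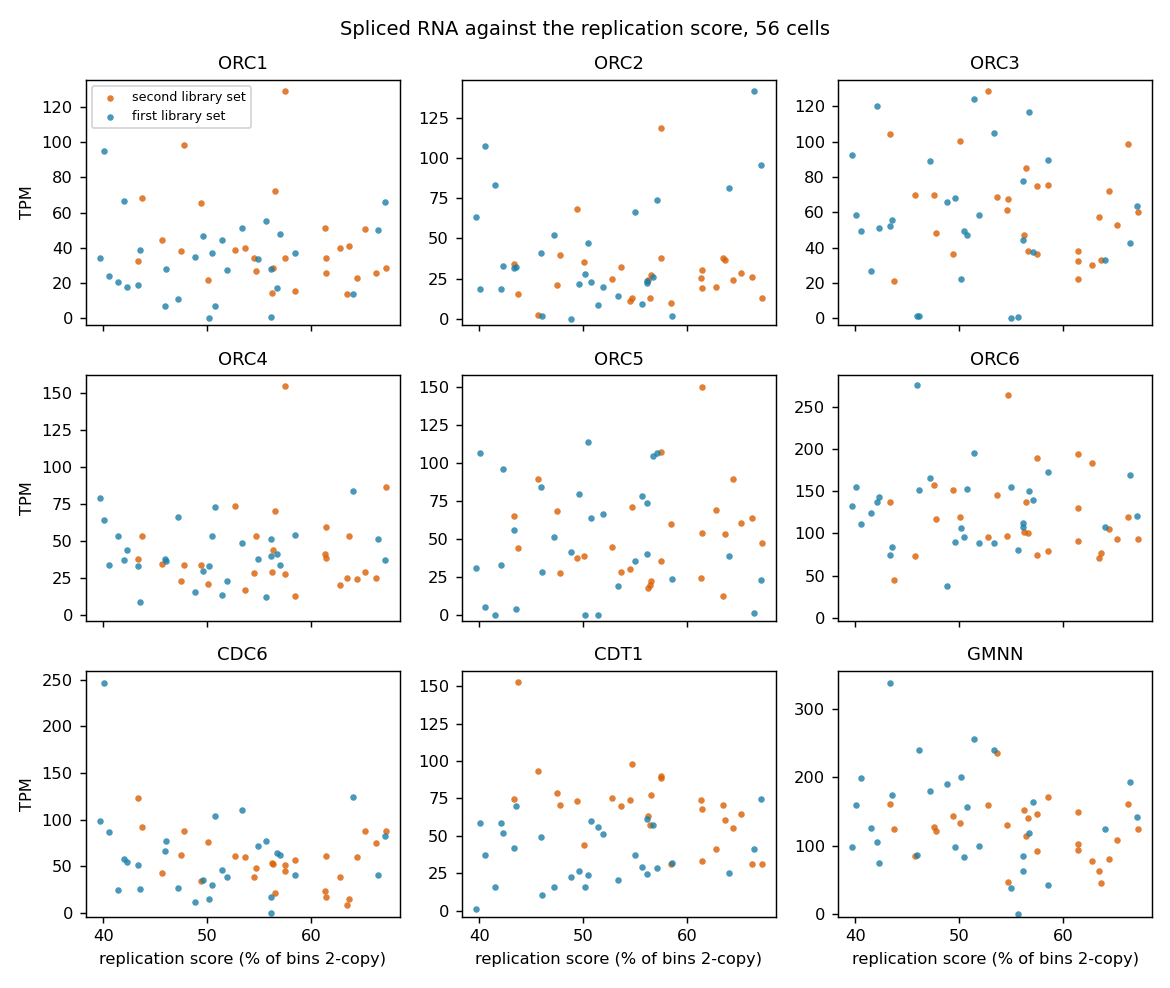
Spliced RNA (TPM, linear axes) of each gene against the replication score in percent, 1 point per cell, coloured by library set. None of the 9 genes was called along the score over all 56 cells, and in the CDT1 panel the second set runs downward with a rho of -0.62.

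CDT1 was the only one of the 9 genes called between the library sets. It had a median of 70.7 TPM in the second set (31.1 to 152, 27 cells) and of 37.2 TPM in the first (1.45 to 74.8, 29 cells). The ranges overlapped, but 4 second-set cells lay below the median of the first set and 1 first-set cell lay above the median of the second. With the score as a term, limma gave a difference of 1.00 ± 0.25 (SE) in log2(TPM + 1), adjusted p = 0.00768, where 6.05% of genes were called. None of the other 8 was called. The largest differences among them were 0.74 for ORC5 (adjusted p = 0.359), 0.65 for ORC3 (adjusted p = 0.368) and 0.64 for ORC1 (adjusted p = 0.251). The mitochondrial share differs between the sets, and after TPM was rescaled without mitochondrial genes the CDT1 difference was 0.89 ± 0.25 (SE) with limma's adjusted p = 0.0201. The sets also differed in the genes at 1 TPM or more per cell, with medians of 13711 in the second and 13029 in the first, and in the total unspliced count, with medians of 568578 and 812254. The part of these in the CDT1 difference was not tested, and the sets are no groups of the study.

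Within the second set the median of CDT1 was lower in cells further into S-phase, though no test over all genes passed. The 13 cells scored above the set's median had a median of 60.5 TPM (31.1 to 89.8) and the 14 at or below it 74.3 TPM (43.9 to 152). In the first set the 14 cells scored above its median had 39.3 TPM (20.8 to 74.8) and the 15 others 26.9 TPM (1.45 to 69.9). The direction of these medians thus differed by set. Spearman's rho was -0.62 over the 27 second-set cells, a value reached by 3 of 17132 genes, CDT1 included, and 0.14 over the 29 first-set cells. It was -0.57 without the 2 second-set cells farthest from the median score, and 0.05 in the first set without its lowest-scored cell. The line fitted by limma had a slope of -0.45 ± 0.15 (SE) in log2(TPM + 1) per 10 points of score in the second set, which did not pass over all genes (adjusted p = 0.942, unadjusted p = 0.00377), and had a slope of 0.31 ± 0.27 in the first (adjusted p = 0.935).

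The difference between those slopes, tested as an interaction in limma, was -0.76 ± 0.31 (SE) with an unadjusted p of 0.0156 and an adjusted p of 1.00, so it did not pass. No gene was called in this test (0%), and 825 genes or 4.82% had an unadjusted p under 0.05. The cell with the lowest score, 39.7%, also had the lowest CDT1 level, 1.45 TPM, and without it the difference was -0.51 with an unadjusted p of 0.0544. The CDT1 pattern was noticed in these values and then tested on them.

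Pairs of the 9 genes showed little common variation from cell to cell. With the mean of each library set subtracted, rho over the 56 cells had a median of 0.06 in the 36 pairs, from -0.32 (ORC5 and GMNN) to 0.26 (ORC3 and GMNN), beside a median of 0.01 for pairs of well-detected genes. ORC1 and CDT1, which share the E2F-like string, had a rho of 0.20, and 0.51 in the second set against 0.12 in the first. CDC6, which also holds that string, had 0.11 with ORC1 and 0.09 with CDT1. All values of 1 cell share a library and a total, and these correlations are descriptions of 56 cells.

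The genes most like each member, by rho over the 56 cells with set means subtracted, came from 6853 genes at 1 TPM or more in at least 90% of cells. RFC5, a subunit of the clamp loader, was nearest to ORC1 (0.51), before COX7A2L (0.46) and HARS1 (0.45). CNOT6L (0.53), CHD7 (0.49) and EPB41L3 (0.45) were nearest to ORC2. ZWILCH (0.55), RBM27 (0.49) and PUF60 (0.47) were nearest to ORC3. SCAPER (0.51), RAD17 (0.44) and GNAI3 (0.43) were nearest to ORC4. The highest rho of all was that of IFT27 with ORC5 (0.58), followed for ORC5 by ACD (0.53) and RPA2, a subunit of the single-strand binding protein RPA (0.53). SAFB (0.50), USP1 (0.45) and RBMX (0.41) were nearest to ORC6. UBE2M (0.49), ITGB1BP1 (0.49) and RBX1 (0.48) were nearest to CDC6. SPEN (0.52), CENPH (0.51) and DDB1 (0.50) were nearest to CDT1, and RABL2B (0.51), SNX6 (0.49) and KB-1995A5.6 (0.48) to GMNN. They are the highest values out of 6853 genes, and within the second set some were near 0 (ACD with ORC5, 0.04).

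Other genes of the pathway were read from a list of 32 partners and regulators: the MCM2-7 helicase, ORC-associated proteins, the ubiquitin ligases that destroy CDT1, CDC6 and geminin, the S-phase cyclins and kinases, the geminin relatives and the E2F factors. Of these 31 were tested along the score, and GMNC was listed at 0 in all 56 cells. Only MCM3, a helicase subunit, was called, with an adjusted p of 0.00854, where 0.0409% of all genes were called. In these mgcv fits 7 of the 31 had an unadjusted p under 0.05, beside 1779 of all 17132 genes. MCM3 had 240 TPM in median (79 to 483) and was lower at higher scores, with a rho of -0.62 over all cells, -0.57 in the second set and -0.62 in the first. With the set as a term its adjusted p in mgcv was 0.0154. Within the sets the limma lines had slopes of -0.40 (adjusted p = 0.942) and -0.53 (adjusted p = 0.395) in log2(TPM + 1) per 10 points, so MCM3 was called in neither alone. Over the 31 genes the median rho was -0.04, and 16 were below 0, against 49.0% of all genes tested. The MCM2-7 subunits were all below 0, from -0.04 for MCM2 to -0.62 for MCM3. Among the kinases and cyclins, rho was 0.38 for CDK1, 0.32 for CDK2, 0.34 for CCNA2, 0.06 for CCNE1 and -0.22 for CCNE2. The other 5 helicase subunits did not pass; MCM6, the next, had an adjusted p of 0.279 and a rho of -0.45. Between the sets, 3 of the 31 were higher in the second and 0 lower, where 6.05% of all genes were called, 568 higher and 469 lower. SKP1 and RBX1, subunits of cullin ubiquitin ligases, had log2 differences of 0.71 (adjusted p = 0.00199) and 0.84 (adjusted p = 0.00504) in limma, and CDK1, the mitotic kinase, had 0.64 (adjusted p = 0.0233). After rescaling without mitochondrial genes the limma differences were 0.60 (adjusted p = 0.00866), 0.73 (adjusted p = 0.0178) and, for CDK1, 0.53 (adjusted p = 0.0607), which no longer passed.

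Unspliced RNA was measured for 8 of the genes as an expected count, the gene-body reads left after exon reads are taken away. These counts are not divided by gene length, so they give no order of levels between genes. The counts can be fractions, so above 0 includes values under 1, of which the smaller ones round to 0 in the count models. ORC2, ORC3, ORC4 and ORC5, whose gene bodies span 54704 to 91209 bases, were above 0 in 44, 52, 43 and 47 of 56 cells. Their medians were 5.50, 7.6, 21.1 and 2.08 and their lower quartiles 0.35, 2.55, 0.2 and 0.2. These medians depended on the library set. For ORC4 they were 34 in the second set and 2.7 in the first, and for ORC5 3.4 and 1.2. For ORC2 they were 1.5 in the second set and 11 in the first, and for ORC3 6.2 and 9.1. The direction thus differed by gene, and these differences were not tested. The shorter genes ORC6, CDC6, CDT1 and GMNN, of 5470 to 16779 bases, were above 0 in 28, 28, 18 and 15 cells, and ORC6 had medians of 0 in the second set and 13 in the first. The counts were concentrated in few cells: the 5 highest cells held from 41.0% of all unspliced counts of ORC4 to 79.1% of those of CDC6. The RNA was taken from the supernatant of lysed cells and is mainly cytoplasmic.

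Unspliced and spliced RNA of the same gene were also set side by side. Over the 56 cells rho between them was 0.36 for ORC2 and between 0.02 and 0.20 for the other 7 genes. For ORC2 it was -0.18 in the second set and 0.63 in the first. Along the score, the 4 genes above 0 in over 50% of cells were tested with edgeR's quasi-likelihood test on rounded counts, and none passed. Slopes in log2 per 10 points of score were -0.28 for ORC2 (adjusted p = 0.916), -0.12 for ORC3 (adjusted p = 0.961), 0.11 for ORC4 (adjusted p = 0.977) and -0.01 for ORC5 (adjusted p = 0.999). Of 10739 genes 288 were called, or 2.68%.

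The loci themselves were mostly replicated by mid-S. In the 55 cells scored 40 to 70%, CDC6 on chromosome 17 (hg38, chr17:40287879-40304657) was 2-copy in every cell (100%, 95% Wilson interval 93.5 to 100). ORC6 on chromosome 16 (chr16:46689643-46698394) was 2-copy in 98.2% (90.4 to 99.7) and ORC2 on chromosome 2 (chr2:200908977-200963680) in 96.4% (87.7 to 99.0). These 3 were unreplicated in 0, 1 and 2 cells. CDT1 (chr16:88803789-88809258) was 2-copy in 91.1% of called cells (79.3 to 96.5), but 10 cells had no call there. ORC3 (chr6:87590067-87667453) was 2-copy in 85.5% (73.8 to 92.4) and ORC4 (chr2:147930396-148021604) in 83.6% (71.7 to 91.1). The intervals of neighbours in this order overlap. The intervals cover counting error only.

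ORC5 and GMNN were the least often replicated of the 8 loci. ORC5 (chr7:104126341-104208047) was 2-copy in 34 of 55 cells, 61.8% (48.6 to 73.5), and GMNN (chr6:24774931-24786099) in 13, 23.6% (14.4 to 36.3). The interval of GMNN does not overlap that of ORC5, and neither overlaps that of CDC6, ORC6, ORC2, CDT1 or ORC3. With the 2-copy share divided into 9 equal parts, the first 6 loci were early-S and ORC5 and GMNN mid-S, GMNN just above the border of the late-S class. The study instead divided the range of its average mid-S replication timing values. The first 6 loci were 2-copy in over 80% of called cells, as were 51.2% of all genes with a state, while 17.4% of genes were 1-copy in over 80%. Over all 45404 genes with a state the median was 81.8%, and the percentile of the members among them ran from 19 for GMNN to 83.9 for CDC6. ORC1 (chr1:52372829-52404423) has no state here.

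**Figure D3:**
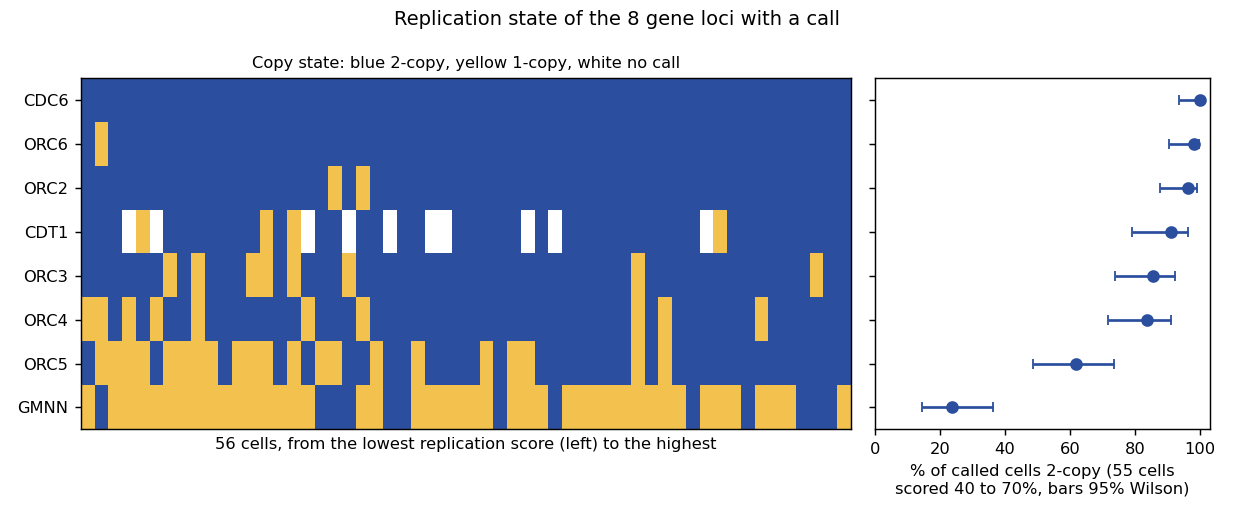
Left, the copy state of 8 loci (rows) in 56 cells ordered by replication score (columns); right, the percent of called cells in the 2-copy state among the 55 cells scored 40 to 70%, with 95% Wilson intervals. CDC6 is 2-copy throughout and GMNN is 1-copy in 42 of 55 cells.

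The state of a locus followed the score to different degrees. Cells with ORC5 at 2 copies had a median score of 56.6% and those at 1 copy 47.2%, and the highest-scored cell with 1 copy had 58.5%. GMNN was different: its 13 replicated cells were scored 40.1% to 67.2% with a median of 55%, close to 53.7% in its 43 unreplicated cells. The low end of that range rests on 1 cell, and the next replicated cell was scored 49.4%. ORC3 and ORC4 were 1-copy in cells scored up to 66.5% and 64.1%. Over the 8 loci, 8 cells had none at 1 copy (median score 58.9%), 22 had 1 (56.7%), 15 had 2 (49.6%), 7 had 3 (43.4%) and 4 had 4 (47.5%). All locus states of a cell come from 1 library and enter its score.

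Of the cells in which GMNN was replicated, 3 had ORC5 unreplicated, against 25 cells with ORC5 replicated and GMNN not. GMNN and ORC3 lie on the same chromosome, and 37 cells had ORC3 replicated and GMNN not, against 2 the other way round. By library set, ORC5 was 2-copy in 77.8% of second-set and 46.4% of first-set cells and ORC4 in 96.3% and 71.4%, while GMNN was 2-copy in 22.2% and 25%. The second set also had the higher scores.

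**Figure D4:**
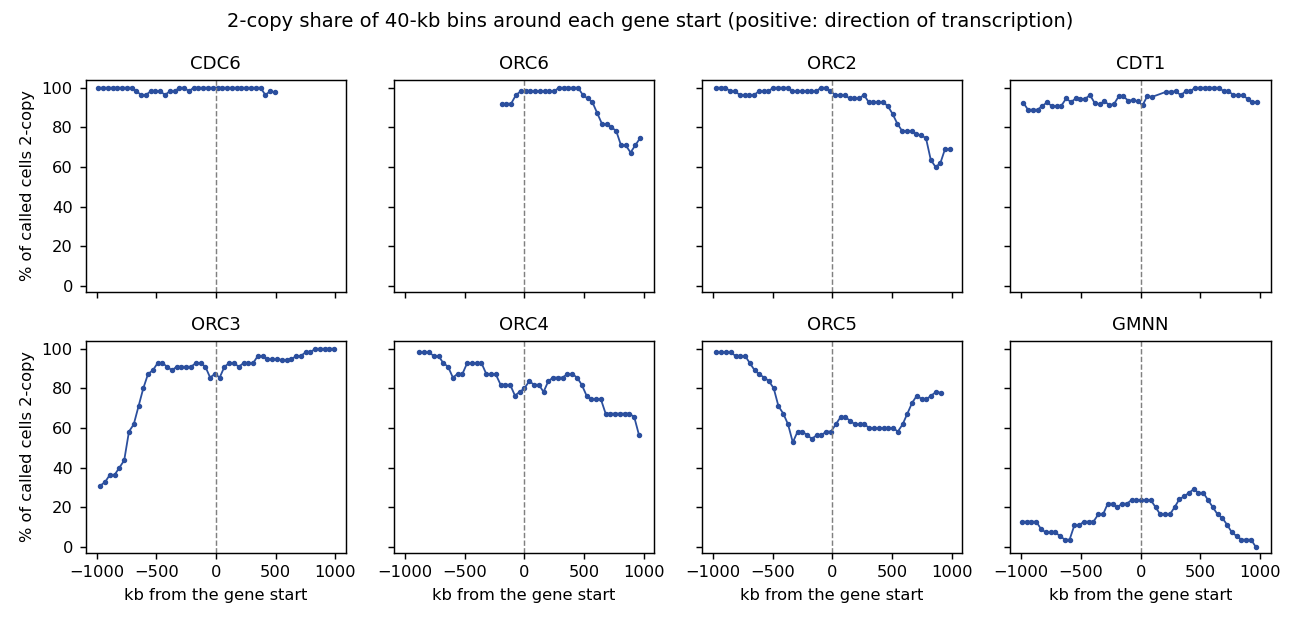
Percent of called cells in the 2-copy state in 40-kb bins within 1000 kb of each gene start (kb, positive in the direction of transcription), among the 55 cells scored 40 to 70%. Around CDC6 and CDT1 all bins with a value are at 88.9% or above, with none beyond 492 kb for CDC6. ORC2, ORC3, ORC4, ORC5 and ORC6 each have a lowest bin at 30.9% to 67.3% and a highest at 98.2% or above. GMNN lies in a stretch that does not exceed 29.1%.

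The surroundings showed whether a locus sat in a replicated domain or at its edge. Around CDC6 the 38 bins with a value within 1000 kb were at 96.4% or above, and around CDT1 the 48 such bins were at 88.9% or above. ORC3 lay at the inner side of a steep change, with 30.9% at position -970 kb from its start and 100% at 830 kb. ORC5 lay in a valley: the lowest bin had 52.7% at position -332 kb, and the highest 98.2% at -972 kb. GMNN lay on a local rise within a little-replicated stretch with a median of 16.4%. The share was 3.6% at -595 kb, 23.6% at 5 kb, 29.1% at 445 kb and 0% at 965 kb. ORC6 had 98.2% at its start and 100% at 450 kb, but 67.3% at 890 kb, and only 30 bins with a value. Around ORC4 and ORC2 the lowest bins had 56.4% and 60%.

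Whether the RNA of a gene depends on its copy number was tested by comparing 2-copy with 1-copy cells, which only ORC5 and GMNN allow because the other loci were in 1 state in over 80% of called cells. Spliced ORC5 RNA had a median of 46.1 TPM (0 to 150) in the 34 2-copy cells and 44 TPM (0.26 to 113.8) in the 21 1-copy cells. The 2-copy cell was the higher in 49.2% of all pairs of cells. The two-sided rank-sum test gave p = 0.924 (0.920 by permutation of the cells) with an adjusted p of 0.988. Neither set passed alone, with permutation p = 0.843 in the second set and 0.546 in the first. A higher ORC5 mRNA level in 2-copy cells was not detectable with this number of cells.

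Spliced GMNN RNA had a median of 149 TPM (37.7 to 255) in the 13 2-copy cells and 123 TPM (0 to 338) in the 42 1-copy cells. The groups overlapped widely, with the 2-copy cell higher in 59.3% of pairs. The rank-sum test gave p = 0.317 (0.321 by permutation) with an adjusted p of 0.830. Within sets the shares were 65.9% in the second and 54.4% in the first, with permutation p = 0.262 and 0.755. The median scores of the 2 groups were close here, 55% in 2-copy and 54.1% in 1-copy cells, whereas for ORC5 they were 56.7% and 47.2%. Over the 2455 genes tested in spliced RNA 210 had an unadjusted p under 0.05, or 8.55%, and none passed after adjustment.

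**Figure D5:**
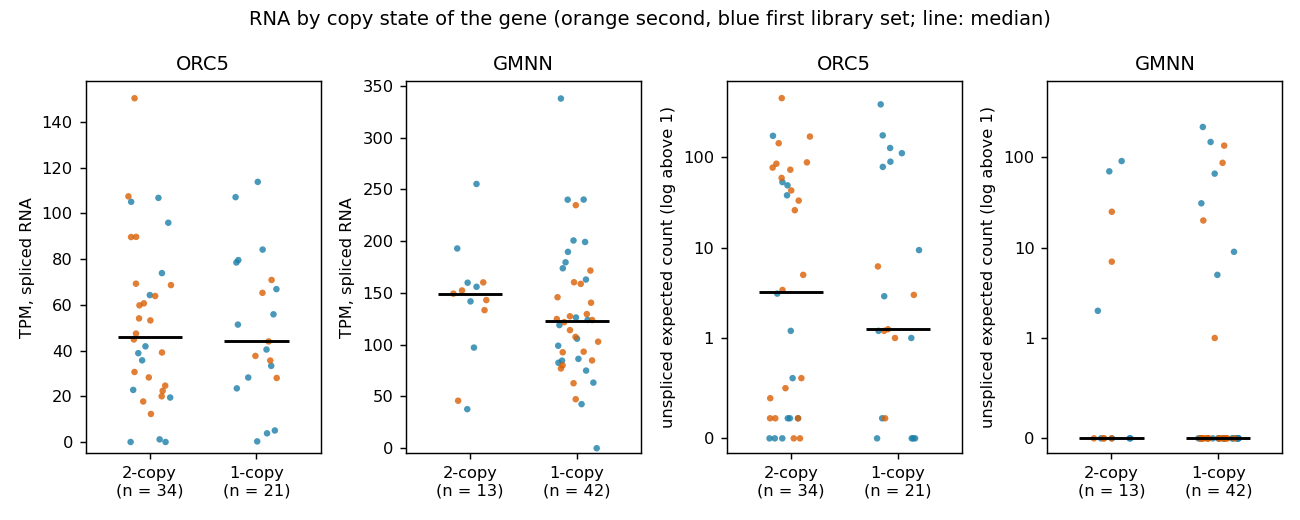
Spliced RNA (TPM) and unspliced RNA (expected counts, log scale above 1) of ORC5 and GMNN in 2-copy and 1-copy cells scored 40 to 70%, 1 point per cell, with the median as a line. The groups overlap in all 4 panels, and the median unspliced count of GMNN is 0 in both.

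In unspliced RNA only ORC5 met the filter. Its count had a median of 3.25 (0 to 453) in 2-copy cells and 1.25 (0 to 386) in 1-copy cells. It was above 0 in 29 of 34 and 17 of 21 cells, values under 1 included. The 2-copy cell was higher in 50% of pairs (rank-sum p = 1.00, adjusted p = 1.00). In the second set the share was 63.9% (permutation p = 0.324) and in the first 40.5% (permutation p = 0.402). Over 3159 genes tested 212 had an unadjusted p under 0.05, or 6.71%, and none passed after adjustment. Unspliced GMNN was above 0 in 5 of 13 2-copy cells and 10 of 42 1-copy cells.

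For the loci with few unreplicated cells the values are given without a test. ORC4 had 37 TPM in median in 46 2-copy cells (12.1 to 86.4) and 53.5 TPM in 9 1-copy cells (8.71 to 154). ORC3 had 52.7 TPM in 47 2-copy cells (0 to 129) and 65.2 TPM in 8 1-copy cells (1.28 to 104.5). In both genes the median was lower in the replicated cells, with overlapping ranges. CDT1 had 57.2 TPM in 41 2-copy cells (10.3 to 152), 49.7 TPM in 4 1-copy cells (15.8 to 70.8) and 47.8 TPM in the 10 cells with no call (16 to 75.1). The 2 cells with ORC2 at 1 copy had 22 and 28 TPM, against 26.2 TPM in median in 53 2-copy cells, and the single cell with ORC6 at 1 copy had 156 TPM, against 115.2 TPM in median in 54 2-copy cells.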

How the data were processed

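DNA reads were aligned to hg38 by the authors (the submitters' processing notes name BWA 0.7.17-r1188), and each 40-kb bin was called with AneuFinder. The deposited states are 2-copy, 1-copy or no call. Chromosomes 1, 15 and X were left out. Spliced RNA is deposited as TPM, which the authors made from exon reads with ramdaq. Slopes of log10 TPM on log10 exon length and log10 gene length were -0.90 and -0.03 in 2029 single-transcript genes seen in few cells, so TPM are per exon length. Unspliced RNA is deposited as an expected count, gene-body minus exon reads with negatives set to 0, although the table is titled TPM. It was rounded for count models. No per-sample column was left unused.

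RNA and DNA libraries that share a cell number were taken as the same cell. Genes at 1 TPM or more in at least 20% of cells were fitted along the score with mgcv 1.9.3 (adjusted p under 0.05 and a lower AIC than without the score). limma 3.58.1 gave lines, interactions and library-set differences on log2(TPM + 1), a scale that understates changes of low genes. edgeR 4.0.16 and DESeq2 1.42.0 were used for unspliced counts above 0 in over 50% of cells. Copy states were compared by rank-sum tests (SciPy 1.17.1) in cells scored 40 to 70%, for genes above 0 in over 50% of cells, called in at least 50% and with neither state in over 80% of called cells, and by 100000 permutations for the genes described. p-values were adjusted by Benjamini-Hochberg over all genes tested. The fits and the copy-state test were tested on simulated data. The tests by library set were added after seeing the data. The 9 genes, the 32 partners and the tests were chosen with earlier results of these data known. All 9 genes are named, with the 3 genes most like each. Alternatives are given in the closing section.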

Additional observations from a re-analysis of the deposited data

Results flagged for a closer look

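Groups of 4 to 10 cells that share a copy state or lack a call were examined in spliced and in unspliced RNA. Of the 8 resulting groups of values, 2 held a cell far from the others, both in unspliced RNA. The criterion marks about 1 in 20 groups of normally distributed values by chance, a rate that does not apply to counts with many zeros such as these. Of the 9 cells with ORC4 at 1 copy, the highest had an unspliced count of 139.5 and the next 38.4, while 2-copy cells reached 253. Of the 4 cells with CDT1 at 1 copy, the highest had a count of 6.00 and the other 3 had 0, while 2-copy cells reached 17 and the count was above 0 in only 18 of 56 cells. Neither value enters a copy-state test. The ORC4 count is among those fitted along the score in edgeR, and the CDT1 count enters the edgeR fit with no filter.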

How the results depend on the processing

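None of the 9 genes was called along the score in spliced RNA in any of 64 alternative fits each (lowest adjusted p 0.565), among them the library set as a term, a pseudocount of 0.1, no filter, TPM rescaled without mitochondrial genes and each cell left out in turn. The count of all genes called was 7 and less stable: 2 with the set as a term, 18 with no filter and 5 by a straight line in limma, which called 0 within either set (added after seeing the data) and 2 to 6 when 1 cell was left out. In unspliced RNA 2.68% of genes were called, against 0.996% with the set as a term, 9.72% with no filter (2219 of 22819 genes) and 0% with an additive model, and none of these called ORC2, ORC3, ORC4 or ORC5. With no filter CDC6, above 0 in 28 cells and under 1 in many of these, had a slope of -1.96 log2 per 10 points in edgeR (p = 0.00893, adjusted p = 0.0766). The CDT1 difference between sets was 0.92 to 1.09 with 1 cell left out (adjusted p 0.00167 to 0.0187), while 866 to 1119 genes were called. In the copy-state tests ORC5 and GMNN passed under no alternative, which included cells scored 45 to 65%, set means subtracted and residuals on the score, and edgeR gave unadjusted p = 0.851 and 0.913 in unspliced RNA. No paired analysis was possible because the numbers shared by groups join the RNA and the DNA library of 1 cell, which no test compares with each other. With no read counts in the TPM table, depth limits what can be said of values near 0.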
